A study of Mus musculus with 25 samples.

Results

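The kinesin motor family was described in single germ cells of mouse testes that lack or carry Ythdc2. Its members were all symbols of the deposited gene table that start with Kif followed by a digit or by c, without Kifap3, and 37 of 14103 genes met this rule. Of these, 36 are motors and 1, Kif1bp (Kifbp in RefSeq), is an adaptor that binds kinesins. The motors were set in 3 groups by role: 13 mitotic kinesins, 16 transport kinesins and 7 others. Kif2b and Kif1a, which the role lists also named, were not analysed here.

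The single-cell data hold 2 libraries of Ythdc2 knockout mice (KO) and 1 library of wild-type mice (WT). All were 4N cells at postnatal day 10 (P10). 4N cells hold a duplicated genome, as cells between DNA replication and division and cells in meiotic prophase do. The titles carry the word embryo beside P10, and the age label was followed. The KO line is given only as described earlier, and the hybrid background B6D2F1 is stated for other mutant lines of the series, so the strain of these mice is not known here. Testis is taken from the extraction protocol, which speaks of whole testes or sorted germ cells. The files do not say which KO title belongs to which KO library, so these are named KO A and KO B, nor whether each library came from its own animal. The series also has sorted 2N and 4N cells of YTHmut/YTHmut and +/YTHmut mice, testes of E332Q and wt mice, and iCLIP of testes, which are not used here.

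KO A held 1522 cells, KO B 1855 and WT 1151, with total depths of 18102156, 25460154 and 16352670 unique molecular identifiers (UMIs, each standing for 1 captured RNA molecule). Median depth per cell lay between 9760 and 12827 UMIs, median mitochondrial shares were 9.11% in KO A, 6.64% in KO B and 5.59% in WT, and the libraries shared 0 cell barcodes. The authors' 5 clusters are given by number: cluster 1 is named by them as undifferentiated spermatogonia, cluster 2 as differentiating spermatogonia, cluster 3 as leptotene-zygotene spermatocytes, and clusters 4 and 5 as mixtures of differentiating spermatogonia and leptotene-zygotene cells. Cluster 3 held 427 WT cells and 0 cells of either KO library. Clusters 4 and 5 held 927 KO A and 951 KO B cells but 24 and 1 WT cells, so that the genotypes barely share a cluster beyond the first 2. The summed level of 8 leptotene-zygotene markers was 3339 CPM (UMIs per 1000000 UMIs) in KO A and 3771 in KO B in cluster 4, 5287 in KO A and 5109 in KO B in cluster 5, and 6974 in WT cluster 3. As a check of the labels, Ythdc2 in cluster 2 stood at 50.4 CPM in KO A and 44.2 CPM in KO B, against 170 CPM in WT, though the labels do not say which part of the gene was removed.

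Kinesins are motor proteins that use ATP to walk along microtubules or to take their ends apart. The mitotic kinesins build the spindle, move chromosomes and complete the cut between daughter cells, and their transcripts are known to accumulate in the late phases of the cell cycle. The transport kinesins carry vesicles, organelles and ciliary cargo and are used by cells whether or not they divide. Spermatogonia divide by mitosis with incomplete cytokinesis, which leaves them joined by intercellular bridges, before they replicate DNA a last time and enter the long prophase of meiosis.

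Promoters of 6 kinesins are shown because the mitotic and transport groups differed in a short motif near the start of transcription. TTTGAA is the core of the cell cycle genes homology region, known from promoters of genes that are active in late cell cycle phases, and CCAAT is the box bound by NF-Y. Both were searched on both strands, so TTCAAA and ATTGG on the printed strand are the same motifs read from the other strand, and no match of one overlapped a match of the other. The windows run from 250 bases before to 50 bases after each RefSeq transcript start, on GRCm38.p6, and are printed in the direction of transcription with the motifs in capitals. Kif11, Kif22 and Kif23 stand for the mitotic group, and Kif18a is its member without TTTGAA. Kif3a stands for the transport group, and Kif27 is the window outside the mitotic group that held TTTGAA. The windows of Kif3a (gene chr11:53565701-53604248) and Kif27 (gene chr13:58284727-58364745) lie inside their genes, at transcript starts past the outermost one. The same holds for the windows of Kif14, Kif2c, Kif21a and Kif26a, which are not shown.
Kif11 (chr19:37376132-37376431, plus strand): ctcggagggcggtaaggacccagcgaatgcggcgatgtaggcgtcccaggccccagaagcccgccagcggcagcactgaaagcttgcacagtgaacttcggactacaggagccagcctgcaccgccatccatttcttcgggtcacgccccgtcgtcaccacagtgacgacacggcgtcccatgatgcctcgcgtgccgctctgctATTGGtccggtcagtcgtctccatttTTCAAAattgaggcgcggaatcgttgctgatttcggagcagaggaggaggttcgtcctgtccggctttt
Kif22 (chr7:127042371-127042670, minus strand): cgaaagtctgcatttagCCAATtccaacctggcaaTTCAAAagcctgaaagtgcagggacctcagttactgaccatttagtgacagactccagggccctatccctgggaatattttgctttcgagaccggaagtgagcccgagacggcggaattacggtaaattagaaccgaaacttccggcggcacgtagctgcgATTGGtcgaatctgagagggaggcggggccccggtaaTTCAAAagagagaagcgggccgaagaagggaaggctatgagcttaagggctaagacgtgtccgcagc
Kif23 (chr9:61946750-61947049, minus strand): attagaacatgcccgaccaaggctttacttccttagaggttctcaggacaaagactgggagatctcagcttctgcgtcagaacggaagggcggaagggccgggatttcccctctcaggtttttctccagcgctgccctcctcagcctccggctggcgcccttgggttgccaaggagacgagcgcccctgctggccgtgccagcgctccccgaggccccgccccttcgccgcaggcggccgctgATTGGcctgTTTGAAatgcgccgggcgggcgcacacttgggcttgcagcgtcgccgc
Kif18a (chr2:109280488-109280787, plus strand): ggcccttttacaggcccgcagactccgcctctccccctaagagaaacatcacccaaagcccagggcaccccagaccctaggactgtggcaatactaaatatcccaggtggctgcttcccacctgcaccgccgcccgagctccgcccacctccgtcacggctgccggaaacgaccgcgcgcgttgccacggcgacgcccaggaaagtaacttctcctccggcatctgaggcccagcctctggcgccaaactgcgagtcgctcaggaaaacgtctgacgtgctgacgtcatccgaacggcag
Kif3a (chr11:53567119-53567418, plus strand): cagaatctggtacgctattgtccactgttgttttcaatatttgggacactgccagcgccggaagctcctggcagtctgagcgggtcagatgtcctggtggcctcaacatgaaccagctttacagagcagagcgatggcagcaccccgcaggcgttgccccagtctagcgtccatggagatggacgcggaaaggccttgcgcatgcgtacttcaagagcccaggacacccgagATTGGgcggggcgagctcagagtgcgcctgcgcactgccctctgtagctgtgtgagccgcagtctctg
Kif27 (chr13:58354898-58355197, minus strand): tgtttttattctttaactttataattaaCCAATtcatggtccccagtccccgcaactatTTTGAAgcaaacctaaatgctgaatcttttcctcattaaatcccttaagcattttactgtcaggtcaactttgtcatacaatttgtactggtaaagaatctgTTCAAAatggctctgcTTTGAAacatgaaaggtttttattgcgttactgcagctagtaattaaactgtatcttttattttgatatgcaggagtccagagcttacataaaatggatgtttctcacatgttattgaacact

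A window was at hand for 29 of the 37 members. TTTGAA was in 11 of 12 windows of mitotic kinesins, in 0 of 11 windows of transport kinesins (10 genes) and in 1 of 9 windows of the other kinesins (7 genes), against 17.9% of all 32851 windows and 11.6% of the 13612 windows of genes in the gene table. CCAAT was in 8 of 12 mitotic windows, 4 of 11 transport windows and 3 of 9 other windows, against 37.4% of all windows. Both motifs stood in 8 mitotic windows and in 0 transport windows, against 6.95% of all windows. Counting the transcript start as 0, the first base of TTTGAA lay at -19 in Kif11, at -17 in Kif22 with a second match at -215, and at 2 in Kif23. The mitotic windows of Kif11, Kif15, Kif18b, Kif20b, Kif22, Kif23, Kif4, Kifc1 and Kifc5b each held a match between -19 and 29. The window of Kif27 held 3 matches, at -191, -89 and -73, and none so near the start. Among mitotic windows with TTTGAA, only Kif14 (one match, at -228) and Kif2c (one, at -103) lacked a match near the start. A match describes the letters of a window and says nothing on whether a factor binds there.

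The kinesin transcripts were first laid out by cluster and library. Clusters were made from the genes of these same cells, so levels between clusters are a description without a test. Levels are in CPM, and intervals are exact Poisson 95% intervals that cover counting error only. Summed over the 13 mitotic kinesins, cluster 2 held 2291 CPM (2253 to 2329) in KO A, 2463 CPM (2434 to 2492) in KO B and 2425 CPM (2394 to 2457) in WT. The KO cells beyond cluster 2 stayed near the sum of cluster 2: in cluster 4 KO A held 2048 CPM and KO B 2175 CPM, and in cluster 5 KO A held 1999 CPM and KO B 2090 CPM. WT cells of cluster 3 held 1302 CPM (1272 to 1333), well below these. The 24 WT cells of cluster 4 held 2356 CPM (2164 to 2560), above both KO libraries in that cluster and well above WT cluster 3.

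Gene by gene, the ratio of cluster 4 to cluster 2 had a median over the 13 mitotic kinesins of 0.923 in KO A and 0.934 in KO B. For cluster 5 over cluster 2 the medians were 0.80 (KO A) and 0.78 (KO B). Within WT, 12 of the 13 had a lower CPM in cluster 3 than in cluster 2, and that ratio had a median of 0.444 and ran from 0.213 for Kif20a to 1.14 for Kif23. The drop seen between WT clusters 2 and 3 for most of these genes was therefore not matched in size between the KO clusters.

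**Figure D1:**
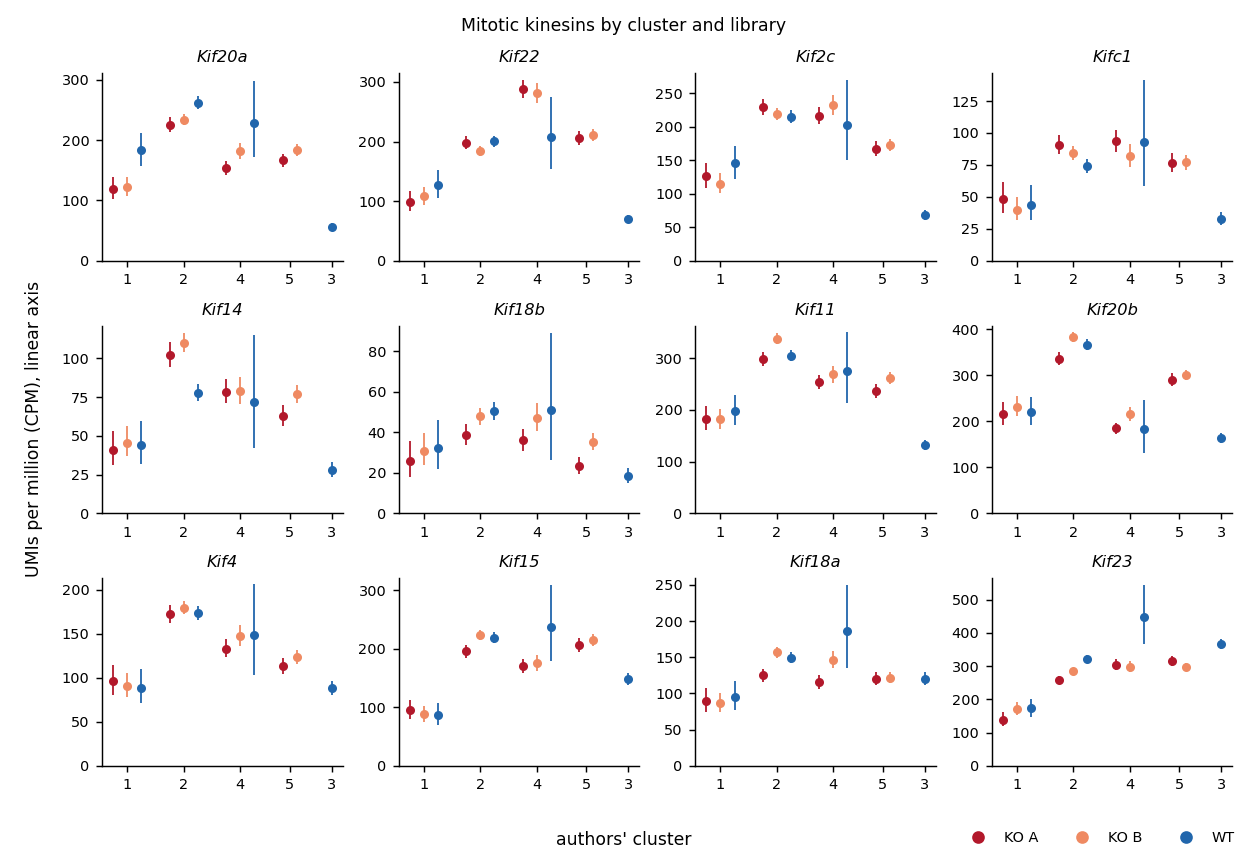
Level of 12 mitotic kinesins (CPM, linear axes) in each of the authors' clusters by library, KO A and KO B to the left of WT, with exact Poisson 95% intervals. Clusters stand in the order 1, 2, 4, 5, 3, and values are drawn where a library has at least 20 cells in the cluster. Kif20a holds 166 and 183 CPM in cluster 5 of KO A and KO B and 55.8 CPM in WT cluster 3. Kif23 holds 367 CPM in WT cluster 3.

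The motors that build the spindle showed the pattern to different degrees. Kif11, which slides spindle microtubules apart, had 254 CPM (KO A) and 268 CPM (KO B) in cluster 4, 236 and 261 CPM in cluster 5, and 133 CPM in WT cluster 3. In cluster 2 KO A had 298, KO B 338 and WT 305 CPM, so the libraries lay close there and far apart later. Kif2c, which takes microtubule ends apart at kinetochores, had 217 CPM (KO A) and 232 CPM (KO B) in cluster 4, 167 and 173 CPM in cluster 5, and 68.3 CPM in WT cluster 3. Kifc1, a minus-end directed motor that focuses spindle poles, had 93.5 CPM (KO A) and 82.0 CPM (KO B) in cluster 4, 76.8 and 76.9 CPM in cluster 5, and 32.9 CPM in WT cluster 3. All 3 were lowest in WT cluster 3 among the clusters and libraries with at least 20 cells.

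Kif22, a chromokinesin that pushes chromosome arms toward the spindle equator, had its highest level in cluster 4 in each library. There it had 287 CPM (KO A) and 281 CPM (KO B), against 208 CPM in the 24 WT cells. In cluster 2 KO A had 198, KO B 184 and WT 200 CPM, and in WT cluster 3 it had 69.6 CPM. Kif18a and Kif15 departed from the rest. Kif18a, which damps chromosome movement at the metaphase plate, had 121 CPM in cluster 5 of each KO library and 120 CPM in WT cluster 3. Kif15, which helps to keep the spindle bipolar beside Kif11, had 206 CPM (KO A) and 214 CPM (KO B) in cluster 5 and 148 CPM in WT cluster 3.

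Among the motors of cytokinesis, Kif20a and Kif23 stood at opposite ends. Kif20a, which brings the chromosomal passenger complex to the central spindle, had 153 CPM (KO A) and 182 CPM (KO B) in cluster 4, against 229 CPM in the 24 WT cells there. Its cluster 5 values were 166 CPM (KO A) and 183 CPM (KO B), and its WT cluster 3 value was 55.8 CPM. Kif23, which with Racgap1 forms centralspindlin and in the mouse is found at germ cell bridges, had 305 CPM (KO A) and 298 CPM (KO B) in cluster 4 against 449 CPM in WT. Cluster 5 had 315 CPM (KO A) and 298 CPM (KO B), and WT cluster 3 had 367 CPM. Kif23 was thus the mitotic kinesin whose transcript did not drop in WT cluster 3, where Kif20a was at its lowest.

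Cell by cell, the sums told the same as the pooled levels. To put cells of unequal depth side by side, each cell was thinned to 5000 UMIs, and 0 cells were shallower. The median cell of clusters 3, 4 and 5 together then held 9 mitotic kinesin UMIs in KO A and 10 in KO B, against 6 in WT, with quartiles of 6 and 13 (KO A), 7 and 14 (KO B) and 4 and 8 (WT). Cells with at least 10 such UMIs made up 49.5% of KO A, 52.7% of KO B and 16.4% of WT cells of these clusters. In clusters 1 and 2 the medians were 10 in KO A, 11 in KO B and 11 in WT. In KO cells of clusters 4 and 5 with at least 10 mitotic kinesin UMIs, the median number of UMIs from 18 meiotic genes was 26 in KO A and 28 in KO B, equal to the medians over all cells of those clusters in the same libraries. In WT it was 37.5 in such cells against 48 in all cells of the class.

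**Figure D2:**
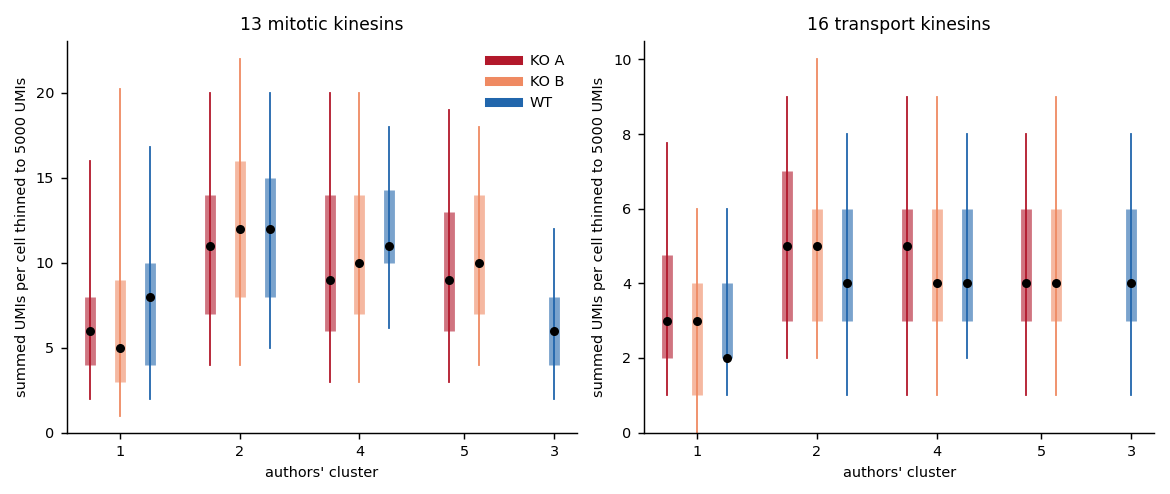
Summed UMIs per cell of the 13 mitotic kinesins (left) and the 16 transport kinesins (right) after thinning each cell to 5000 UMIs, by cluster and library. Points are medians, thick bars span the quartiles and thin lines the 5th to 95th percentiles. The mitotic median is 9 or 10 in the KO clusters 4 and 5 and 6 in WT cluster 3, while the transport medians lie at 4 or 5 in clusters 2 to 5.

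Most mitotic kinesins also varied together from cell to cell. Within KO A, the correlation of each mitotic kinesin with the sum of the others over the 335 cells of cluster 5 had a median of 0.399 over the 13 genes, and within KO B over 510 cells a median of 0.438. In WT cluster 3, over 427 cells, the median was 0.253. In cluster 2, which the genotypes share, the medians were 0.308 in KO A, 0.318 in KO B and 0.277 in WT. In cluster 1 they were 0.402 in KO A and 0.603 in KO B. The part of the lower mitotic kinesin counts of WT cluster 3 in its median was not tested. For the transport kinesins against the same sum, medians over genes ranged from -0.05 to 0.04 across clusters and libraries. These are Pearson correlations of natural log values over cells of the same library and cluster. Depth scaling is common to all genes of a cell and no cycle phase is labelled, so the correlations are given as a description.

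KO and WT were then tested in clusters 3, 4 and 5 together, where 427 of 452 WT cells are of cluster 3 and all KO cells of clusters 4 and 5. The test was limma on log2 of the mean normalised UMIs per cell with 0.01 added, over all 9299 genes that reached a mean of 0.05, with adjusted p under 0.05 as the call. Of the 13 mitotic kinesins, all of which were tested, 10 were higher in KO, 1 was lower and 2 did not pass. Over all genes tested 37.4% were higher and 29.1% were lower, so a call alone is common in this comparison. The median log2 difference was 0.65 over the mitotic kinesins and 0.08 over all genes. Of 16 transport kinesins 11 passed the filter on low values, and of these 3 were higher, 2 were lower and 6 did not pass, with a median log2 difference of 0.09 over these 11. The transport counts stand close to the shares over all genes and are no result about that group.

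Kif22 (ENSMUSG00000030677, GRCm38.p6 chr7:127027729-127042467) had 2.58 normalised UMIs per cell in KO A and 2.46 in KO B, against 0.823 in WT, a 3.06-fold higher KO mean. Both KO values lay far above WT and close to each other, with a log2 difference of 1.60 (SE 0.10, adjusted p = 7.99e-55). Kif20a had 1.55 and 1.83 normalised UMIs per cell in KO A and KO B against 0.679 in WT, a log2 difference of 1.30 (SE 0.10, adjusted p = 1.35e-35). Kif2c (ENSMUSG00000028678, chr4:117159633-117182624) had 1.97 and 1.99 in KO A and KO B against 0.825, a log2 difference of 1.25 (SE 0.10, adjusted p = 5.55e-34). In each of these 3 genes the spread between the KO libraries was small beside their distance from WT.

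Kif14, a midbody motor that recruits citron kinase, had 0.721 and 0.786 normalised UMIs per cell in KO A and KO B against 0.326 in WT, a log2 difference of 1.18 (SE 0.12, adjusted p = 1.5e-21). Kifc1 had 0.880 and 0.798 against 0.401, a log2 difference of 1.04 (SE 0.12, adjusted p = 1.82e-18). Kifc5b, a near-identical copy of Kifc1 whose counts are uncertain because reads of the pair can be split, had 0.195 and 0.193 against 0.126, a log2 difference of 0.59 (adjusted p = 0.00256). Kif11 had 2.51 and 2.69 against 1.53, a log2 difference of 0.76 (SE 0.10, adjusted p = 3.12e-13). The log2 differences of the other mitotic kinesins called higher were 0.65 for Kif18b, which with Kif18a controls microtubule length, 0.38 for Kif20b, an abscission motor (0.25 without KO B), and 0.33 for Kif4, a chromokinesin of the central spindle encoded on the X chromosome.

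Kif23 went the other way. It (ENSMUSG00000032254, chr9:61917277-61946810) had 3.17 normalised UMIs per cell in KO A and 3.10 in KO B, against 4.28 in WT, a log2 difference of -0.45 (SE 0.11, adjusted p = 5.92e-05). Both KO libraries lay below WT. Kif15 and Kif18a did not pass, with log2 differences of 0.14 (SE 0.10) and -0.15 (SE 0.10) and adjusted p of 0.207 and 0.169. Kif18a had 1.17 and 1.35 in KO A and KO B against 1.40 in WT, so that KO B lay near WT.

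**Figure D3:**
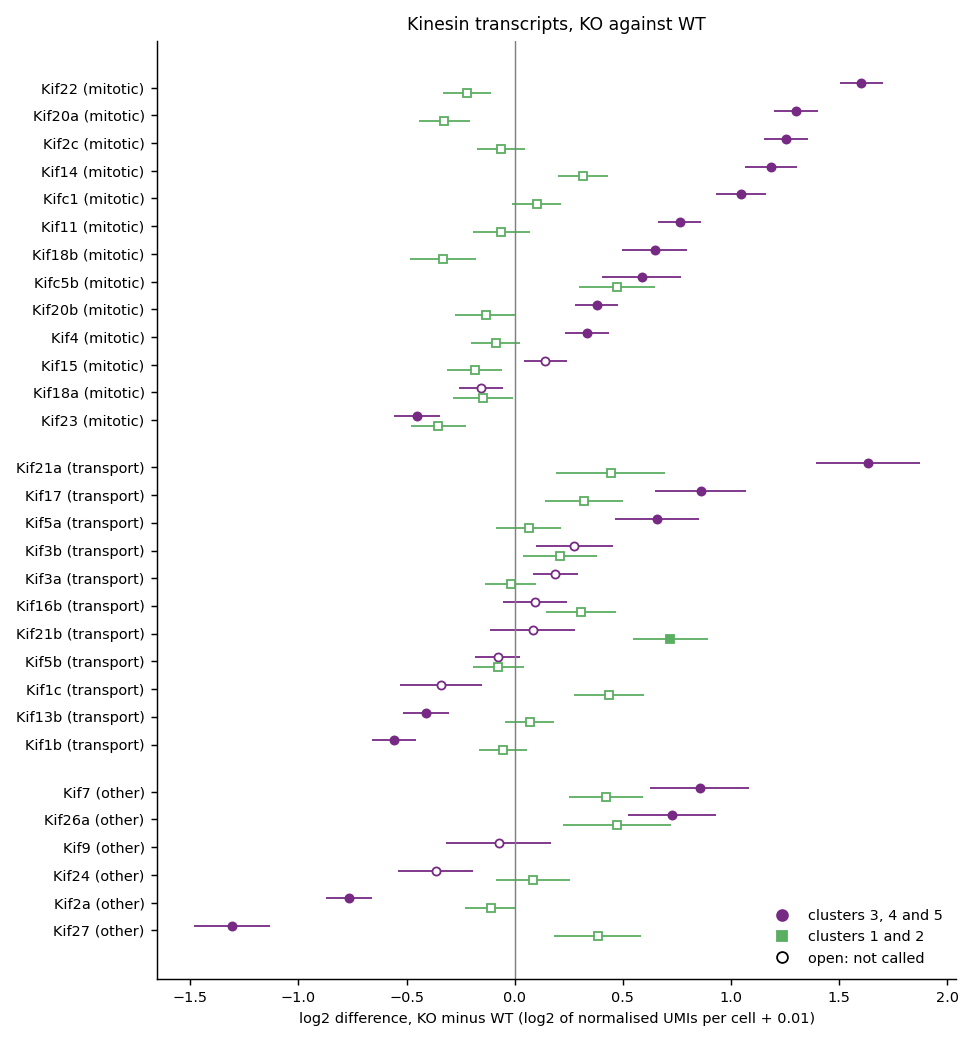
Log2 difference of KO minus WT (mean normalised UMIs per cell plus 0.01) for the kinesins tested, with bars of 1 SE from limma. Circles are clusters 3, 4 and 5, squares are clusters 1 and 2, and filled symbols are called at adjusted p under 0.05. From Kif22 at 1.60 to Kif4 at 0.33, 10 mitotic kinesins are called higher in clusters 3, 4 and 5, and 0 mitotic kinesins are called in clusters 1 and 2.

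These tests have 1 residual degree of freedom, which the pair of KO libraries gives. WT, with 1 library, is taken to vary like them, and genotype and library cannot be told apart. Nor can genotype and cluster in clusters 3, 4 and 5, as cluster 3 held only WT cells and clusters 4 and 5 nearly only KO cells. In cluster 4 the mitotic sum was 2356 CPM in the 24 WT cells, against 2048 CPM in KO A and 2175 CPM in KO B. An exact test of 1 library against 2 cannot go below p = 0.333, so the adjusted p values depend on limma's sharing of the spread between genes. In clusters 3, 4 and 5 the prior degrees of freedom were infinite, so SE and p came from the trend over all genes. A gene's own spread between KO A and KO B had no weight there. Kif20b had an SE of 0.10, with log2 differences of 0.50 without KO A and 0.25 without KO B. With cells chosen by their share of UMIs in 18 meiotic genes in place of the clusters, 7 mitotic kinesins were higher (26.6% of all genes) and 2 were lower (25.0%), with a median log2 difference of 0.26. Kif22 was at 0.85, Kif2c at 0.60 and Kif20a at 0.33 on that scale, all called. Kif4, Kif18b and Kif20b were not called there and had log2 differences of -0.067, -0.032 and -0.035, on the other side of 0, and Kif18a was called lower, at -0.25 (adjusted p = 0.0206). edgeR on recovered counts called 10 mitotic kinesins higher and 1 lower, against 30.3% and 28.9% of all genes. DESeq2 called 7 mitotic kinesins higher and 1 lower, against 18.5% and 20.2% of all genes, without Kif4 (adjusted p = 0.282), Kif18b (0.133) and Kifc5b (0.225).

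Of the transport kinesins, the kinesin-1 heavy chains, which carry vesicles and organelles with their light chains, gave 1 call, for Kif5a. Kif5b had 2.65 and 2.91 normalised UMIs per cell in KO A and KO B against 2.93 in WT in clusters 3, 4 and 5, which did not pass (log2 difference -0.08, SE 0.10, adjusted p = 0.508). Kif5a had 0.164 and 0.158 against 0.0983, a log2 difference of 0.66 (adjusted p = 0.00136). The call for Kif5a was lost with edgeR (adjusted p = 0.0707) and DESeq2 (adjusted p = 0.346), and with the class by meiotic share its log2 difference was -0.070. Kif5c was left out of the test by the filter, with 0.0203 and 0.0303 in KO A and KO B against 0.0209 in WT.

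Kif3a and Kif3b, partners in the kinesin-2 motor of intraflagellar transport, did not pass. Kif3a had 2.90 and 2.71 normalised UMIs per cell in KO A and KO B against 2.46 in WT (log2 difference 0.19, adjusted p = 0.0957), and Kif3b had 0.218 and 0.173 against 0.159 (log2 difference 0.27, adjusted p = 0.163). Kif17, a further kinesin-2 motor, had 0.123 and 0.128 against 0.0649, a log2 difference of 0.86 (adjusted p = 0.000102). For Kif17 the adjusted p was 0.0983 with DESeq2 and 0.149 with the class by meiotic share.

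Of the kinesin-3 motors, which carry vesicles and mitochondria, Kif1b had 1.66 and 1.74 normalised UMIs per cell in KO A and KO B against 2.51 in WT, a log2 difference of -0.56 (SE 0.10, adjusted p = 9.98e-08). Kif13b had 0.864 and 0.848 against 1.14, a log2 difference of -0.41 (adjusted p = 0.000255), which missed the call with the class by meiotic share (adjusted p = 0.0739). Both were lower in each KO library than in WT. Kif1c (log2 difference -0.34, adjusted p = 0.098) and the endosomal motor Kif16b (0.09, adjusted p = 0.584) did not pass.

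Kif21a, a kinesin-4 motor that restrains microtubule growth, was at a low level. It had 0.0842 normalised UMIs per cell in KO A and 0.0944 in KO B against 0.0220 in WT, a log2 difference of 1.63 (SE 0.24, adjusted p = 4.81e-11). The WT level lies under the filter of 0.05, so Kif21a was tested only through its KO values, and the difference is read as a description. Its relative Kif21b had 0.140 and 0.135 in KO A and KO B against 0.129 in WT and did not pass (log2 difference 0.08, adjusted p = 0.720). The transport members outside the test in these clusters were Kif3c, Kif5c, Kif13a, Kifc2 and Kifc3, all at or below 0.0396 normalised UMIs per cell in each library.

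Summed over the 16 transport kinesins, levels varied little beyond cluster 1. KO A held 949 CPM in cluster 4 and 863 CPM in cluster 5, KO B held 935 and 902 CPM there, and in cluster 2 KO A held 993, KO B 975 and WT 890 CPM. Cluster 3 held 862 CPM in WT. In cluster 1 KO A had 620, KO B 579 and WT 577 CPM. Where the mitotic sum in WT cluster 3 was near that of cluster 1, the transport sum kept near that of cluster 2.

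**Figure D4:**
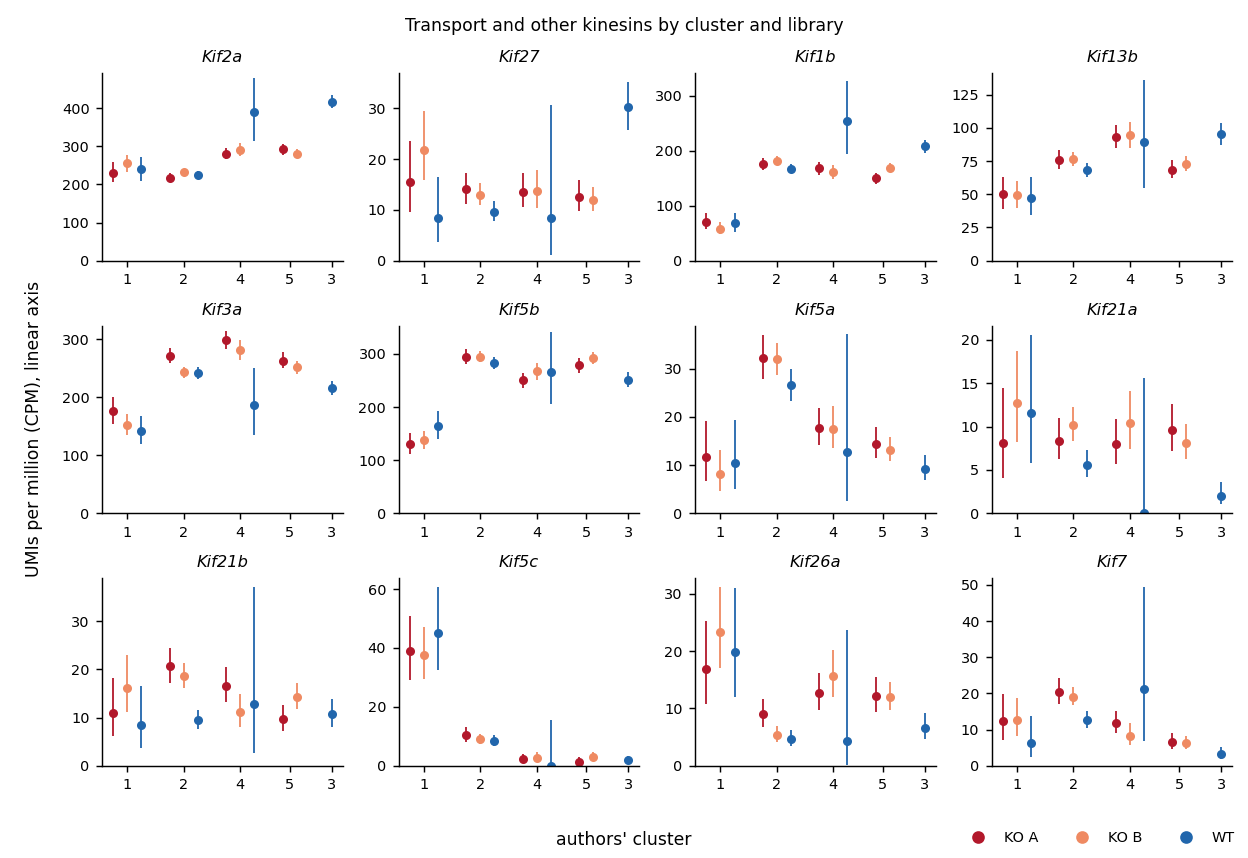
Level of 12 transport and other kinesins (CPM, linear axes) by cluster and library, KO A and KO B to the left of WT, with exact Poisson 95% intervals and clusters in the order 1, 2, 4, 5, 3. Kif2a reaches 417 CPM in WT cluster 3, above 292 and 281 CPM in cluster 5 of KO A and KO B. Kif5c lies between 37.5 and 45.0 CPM in cluster 1 and at or below 10.3 CPM elsewhere.

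Of the 7 other kinesins, 6 passed the filter in clusters 3, 4 and 5, of which 2 were lower in KO, 2 were higher and 2 did not pass, against 29.1% lower and 37.4% higher over all genes, so the counts are no result about the group. Kif2a, a depolymerase of microtubule ends related to Kif2c (ENSMUSG00000021693, chr13:106958996-107022355), had 2.89 normalised UMIs per cell in KO A and 2.95 in KO B against 4.97 in WT, a log2 difference of -0.77 (SE 0.11, adjusted p = 5.00e-12). In CPM, KO A had 281 in cluster 4 and 292 in cluster 5 and KO B had 290 and 281, against 417 in WT cluster 3 and 390 in the 24 WT cells of cluster 4. In cluster 2 KO A had 217, KO B 231 and WT 225 CPM, so the increase from cluster 2 onward was smaller in the KO libraries. Kif2a and Kif2c, which share the same kind of motor, thus differed in direction.

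Kif27, a relative of the Hedgehog pathway kinesin Kif7 known from motile cilia in the mouse, had 0.138 normalised UMIs per cell in KO A and 0.134 in KO B against 0.351 in WT, a log2 difference of -1.31 (SE 0.18, adjusted p = 9.42e-13). In CPM, KO A had 13.5 in cluster 4 and 12.6 in cluster 5 and KO B had 13.7 and 11.9, while WT had 30.2 (25.7 to 35.2) in cluster 3 and 9.59 in cluster 2. Kif7, which works in primary cilia, was higher in KO at 0.101 and 0.0734 in KO A and KO B against 0.0432 in WT (log2 difference 0.85, adjusted p = 0.000446), and Kif26a, a signalling member without known motor activity, at 0.130 and 0.139 against 0.0771 (log2 difference 0.73, adjusted p = 0.000788). The WT level of Kif7 lies under the filter of 0.05, so it too was tested only through its KO values. DESeq2 called neither Kif7 (adjusted p = 0.294) nor Kif26a (adjusted p = 0.194). Kif24, a centriole kinesin, and Kif9, a motor of motile cilia, did not pass, with adjusted p of 0.0537 and 0.793. Kif24 was called lower with edgeR (log2 difference -0.58, adjusted p = 0.0107) and with limma on TMM-scaled sums (-0.56, adjusted p = 0.00734). Kif6 had at most 0.00377 normalised UMIs per cell, and the adaptor Kif1bp did not pass (log2 difference -0.09, adjusted p = 0.511).

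In clusters 1 and 2, where both genotypes are well represented, fewer kinesins were called, as were fewer genes of any kind. limma tested 31 motors among 9812 genes and called 1 higher in KO and 0 lower, against 3.34% and 1.65% of all genes. These counts stand near the shares over all genes and are no result about the family. At an unadjusted p under 0.05 there were 7 motors. edgeR called 1 higher and 0 lower, against 3.89% and 3.41% of all genes, with 10 at an unadjusted p under 0.05. DESeq2 gave an adjusted p for 16 of the 31 motors and called 0 of these in either direction, against 0.512% and 0.955% of the 4295 genes with one. Of the 31, 3 had an unadjusted p under 0.05. The called gene was Kif21b, with 0.221 and 0.234 normalised UMIs per cell in KO A and KO B against 0.134 in WT, a log2 difference of 0.72 (SE 0.17, adjusted p = 0.0402). Of the 13 mitotic kinesins limma called 0, with 4 at an unadjusted p under 0.05, and edgeR called 0, with 5. DESeq2 called 0 of the 11 for which it gave an adjusted p, with 2 of 13 at an unadjusted p under 0.05. Their median log2 difference was -0.14, against 0.03 over all genes.

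The mitotic kinesins with the largest differences later were not called here, with log2 differences of -0.22 for Kif22, -0.33 for Kif20a and -0.06 for Kif2c. Kif22 had 1.97 and 1.91 normalised UMIs per cell in KO A and KO B against 2.26 in WT, Kif20a had 2.11 and 2.32 against 2.78, and Kif2c had 2.28 and 2.22 against 2.35. In all 3 the KO values lay below WT, and none passed (adjusted p 0.237, 0.113 and 0.751). Kif23 had 2.50 and 2.92 in KO A and KO B against 3.45 in WT (log2 difference -0.35, adjusted p = 0.118). Cluster 2 alone gave 1 motor higher, Kif21b (adjusted p = 0.0456), and 0 lower, against 2.87% and 1.43% of all genes, with 6 motors at an unadjusted p under 0.05. KO A carried 444 CPM of the red blood cell markers Hbb-bs and Hba-a2 in cluster 2, against 1.07 CPM in KO B and 0.619 CPM in WT, and their part in these results was not tested.

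Some members were at their highest in cluster 1 in all libraries. Kif5c had 38.9 CPM in KO A, 37.5 CPM in KO B and 45.0 CPM in WT in cluster 1, against 8.56 to 10.3 CPM in cluster 2. Kif26a in cluster 1 had 16.9 CPM (KO A), 23.3 CPM (KO B) and 19.9 CPM (WT), and Kif3c had 7.33, 10.7 and 7.32 CPM there, at or below 4.24 CPM elsewhere. Cluster 1 also held all 3 myoid markers, summing to 891 CPM in KO A, 1110 CPM in KO B and 2050 CPM in WT, and all 4 stromal markers, summing to 412 CPM in KO A, 410 CPM in KO B and 577 CPM in WT. In clusters 2 to 5 the myoid sum was at most 8.47 CPM and the stromal sum at most 5.33 CPM. The part of such cells in the cluster 1 levels of these kinesins was not tested.

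The difference between classes was then tested itself. For each library the log2 level in clusters 1 and 2 was taken from that in clusters 3, 4 and 5, and this step was compared between KO and WT over 9658 genes, of which 25.4% had a higher and 18.2% a lower step in KO. Among the 13 mitotic kinesins 8 had a higher step, 0 a lower one and 5 did not pass. Their median difference was 0.82 on the log2 scale, against 0.08 over all genes. Of the 5, Kif4 and Kif15 were called higher by limma with a pseudocount of 0.1 (adjusted p = 0.0132 and 0.0334). They were also called with a filter of 0.2 (0.0138 and 0.0366) and with TMM-scaled sums (0.0455 and 0.0435). Kif22 stepped up by 0.39 in KO A and 0.36 in KO B but had -1.45 in WT, a difference of 1.82 (SE 0.13, adjusted p = 0.00175). Kif20a had steps of -0.44 and -0.34 in KO A and KO B and of -2.02 in WT, a difference of 1.63 (SE 0.16, adjusted p = 0.00234). In Kif23 the steps were 0.34, 0.08 and 0.31 in KO A, KO B and WT, with no call (difference -0.10, adjusted p = 0.613), so the lower Kif23 of KO cells in the later clusters was not shown to differ from that in the earlier ones.

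Of 12 transport kinesins tested for the step, 3 had a higher and 4 a lower one in KO, against 25.4% and 18.2% of all genes. With so few genes these counts are no result about that group. Those with a lower step were Kif1c, Kif21b, Kif1b and Kif13b, from -0.78 to -0.48. A higher one was called for Kif21a at 1.19, Kif5a at 0.59 and Kif17 at 0.54. In WT Kif21a had 0.0734 normalised UMIs per cell in clusters 1 and 2 and 0.0220 later, on average under the filter of 0.05. It was thus tested for the step only through its KO values, and its step is read as a description. Without the filter its call was lost (adjusted p = 0.0504). The call for Kif17 was lost with a pseudocount of 0.1 (adjusted p = 0.129) and without doublets (0.0543), and that for Kif5a with TMM-scaled sums (0.08). Kif27 had steps of 0.03 (KO A) and -0.18 (KO B) and of 1.61 in WT, a difference of -1.69 (SE 0.14, adjusted p = 0.00186), and Kif2a had steps of 0.35 and 0.24 against 0.95, a difference of -0.66 (adjusted p = 0.0105). Without a filter on low values 5 motors were called for a higher step, Kif22, Kif20a, Kif2c, Kif18b and Kifc1, and 2 for a lower one, Kif27 and the low-level Kifc2, which the filter leaves out. The share of all genes called without the filter was not taken, so these counts are no result about the motors.

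Over all cells of each library, where the different make-up of the libraries enters, 6 of 30 motors were higher in KO and 3 were lower, against 18.3% and 14.8% of 9637 genes. Those higher were Kif14, Kif22, Kifc1, Kifc5b, Kif21a and Kif26a, and those lower were Kif23, Kif2a and Kif27. Kif22 had 2.34 and 2.19 normalised UMIs per cell in KO A and KO B against 1.70 in WT (log2 difference 0.42, adjusted p = 0.00764). DESeq2 called 0 motors in either direction here, against 5.82% and 6.76% of all genes, with 6 at an unadjusted p under 0.05. edgeR called 7 higher and 2 lower, against 16.5% and 14.3%.

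Partners of the mitotic kinesins were described next. Of 20 spindle and midbody genes, 13 were higher in KO and 1 was lower in clusters 3, 4 and 5, with a median log2 difference of 0.80, against 37.4% higher, 29.1% lower and a median of 0.08 over all genes. With the class by meiotic share 9 of the 20 were higher and 3 lower, against 26.6% and 25.0% of all genes, and the median was 0.17. Cenpe, the kinetochore kinesin whose symbol falls outside the naming rule, had 2.84 and 3.27 normalised UMIs per cell in KO A and KO B against 1.94 in WT, a log2 difference of 0.65 (SE 0.10, adjusted p = 1.05e-09). In clusters 3, 4 and 5 the largest differences were those of the mitotic kinases Plk1 (2.41), Aurkb (2.21) and Aurka (2.18). With the class by meiotic share no member of the list had a log2 difference above 0.734. Further members with a log2 difference of at least 1 were the spindle pole protein Aspm, the microtubule binder Nusap1 (1.09), and Birc5 (1.12) and Incenp of the chromosomal passenger complex. Incenp had 2.12 and 2.27 normalised UMIs per cell in KO A and KO B against 0.768 in WT. Racgap1, the partner of Kif23 in centralspindlin, had 3.31 and 3.07 in KO A and KO B against 2.80 in WT and did not pass (log2 difference 0.19, adjusted p = 0.101). In clusters 1 and 2 limma called 1 of the 20 higher and 0 lower, near the 3.34% and 1.65% of all genes, with 3 at an unadjusted p under 0.05, and edgeR and DESeq2 called 0, with 4 and 2 at an unadjusted p under 0.05.

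Of 12 cargo adaptors and light chains, 10 were tested in clusters 3, 4 and 5, and 3 were higher and 4 lower in KO. These counts stand near the 37.4% and 29.1% over all genes and are no result about the list. Klc3, a kinesin light chain known from rat and mouse spermatids, had 0.145 and 0.135 normalised UMIs per cell in KO A and KO B against 0.604 in WT, a log2 difference of -2.03 (SE 0.17, adjusted p = 5.60e-33). It was the member of this list with the largest difference. In clusters 1 and 2 Klc3 was called in the other direction, at 0.221 and 0.201 in KO A and KO B against 0.114 in WT (log2 difference 0.83, adjusted p = 0.0324). Kifap3, the subunit that links the kinesin-2 pair to cargo, had 0.584 in KO A and 0.795 in KO B against 0.939 in WT (log2 difference -0.46, adjusted p = 9.12e-05). KO B lay nearer to WT, and without KO A the difference was -0.24.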

How the data were processed

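Single-cell libraries of 4N cells were used (2 KO, 1 WT). Per the submitters' processing notes, Cell Ranger 3.0.2 and Scanpy were used with mm10/GRCm38. The authors deposited natural log values, ln(1 + count/size factor), for 4528 cells and 14103 genes. The deposited cell table gives UMI and gene counts, the mitochondrial fraction and the size factor (a score) per cell, and a U-motif score per gene is in the table of genes that the authors deposited. After exponentiation and multiplication by the size factor, 100% of values above 0 were whole counts within 0.001, and they held 99.9% of deposited UMIs. Since the unit is a log value, limma 3.58.1 (R 4.3.3) with a mean-variance trend was the main test, on log2(mean normalised UMIs per cell + 0.01), with Benjamini-Hochberg adjustment over all genes. The values understate changes of low genes. Prior degrees of freedom were 24.97 for all cells, 10.8 for clusters 1 and 2, 4.76 for the step, and infinite for clusters 3, 4 and 5. edgeR 4.0.16 (TMM) and DESeq2 1.42.0 were run on recovered counts per library. Scripts were tested on simulated data. Scrublet (Scanpy 1.11.5) called 5, 11 and 6 doublets in KO A, KO B and WT, kept in the main result. No batch label was given. p-values measure how these libraries vary, which may be technical. The members and lists were chosen with earlier results of these data known. Per-library values are given for the 31 members that reached 10 CPM in a class, and the others by range. The class by meiotic share took cells above the pooled median of 0.430% of UMIs in 18 meiotic genes (708 KO A, 838 KO B and 718 WT cells, of which 680, 795 and 447 were of clusters 3, 4 and 5), and 679 cells lay within 10% of that limit. Promoter sequences are RefSeq's, on GRCm38.p6, and all 37 members matched RefSeq by symbol or synonym.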

Additional observations from a re-analysis of the deposited data

Results flagged for a closer look

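The change from clusters 1 and 2 to clusters 3, 4 and 5 differed between KO and WT, by a limma test of that difference itself, in 18 motors. On the log2 scale, KO minus WT, it was higher for the mitotic kinesins Kif22 (1.82), Kif20a (1.63), Kif2c (1.32), Kif18b (0.98), Kifc1 (0.94), Kif14 (0.87), Kif11 (0.82) and Kif20b (0.51), and for the transport kinesins Kif21a (1.19), Kif5a (0.59) and Kif17 (0.54), of which Kif17 lost the call with a pseudocount of 0.1 and without doublets, and Kif5a with TMM-scaled sums. It was lower for Kif27 (-1.69), Kif1c (-0.78), Kif2a (-0.66), Kif21b (-0.64), Kif1b (-0.50), Kif13b (-0.48) and Kif24 (-0.45). Kif21a passed the filter on low values only through its KO values, so its difference is read as a description. Without that filter the call was kept only for Kif22, Kif20a, Kif2c, Kif18b, Kifc1 and Kif27. For Kif1c the KO libraries lay above WT in clusters 1 and 2 and below it later, with no call in either class: it had 0.265 and 0.277 normalised UMIs per cell in KO A and KO B against 0.198 in WT in clusters 1 and 2, and 0.130 and 0.148 against 0.179 in clusters 3, 4 and 5. Over all genes tested 25.4% were called higher and 18.2% lower for this difference.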

How the results depend on the processing

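Counts of motors called were within 1.5 times under the other settings tried, except for these. With a filter of 0.2 in place of 0.05, which tests fewer genes, 3 were higher over all cells, 0 were higher in clusters 1 and 2, 9 were higher in clusters 3, 4 and 5, and 4 had a lower step. With DESeq2, 0 were higher and 0 lower over all cells, 0 were higher in clusters 1 and 2 (it gave an adjusted p for 16 of 31 motors, Kif21b not among them), and 8 were higher in clusters 3, 4 and 5. With the class by meiotic share 9 were higher there, and with no filter 5 had a higher and 2 a lower step. The cause of the last 3 was not tested. For the filter of 0.2 and for no filter, the share of all genes called was not taken, so those counts are no result about the motors. In clusters 3, 4 and 5 the class by meiotic share put Kif4 (-0.067), Kif5a (-0.070), Kif18b (-0.032) and Kif20b (-0.035) on the other side of 0. Without KO A or KO B, which gives values with no test, none of the called members changed sign. No paired analysis was possible because WT has 1 library, so that the genotypes share fewer than 2 replicate numbers, and the KO libraries are not tied to numbered titles. Kif7 and Kif5a lost their calls in clusters 3, 4 and 5 with both edgeR and DESeq2. Depth limits what can be said of Kif6, Kif9, Kif3c and Kif13a.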

Other observations

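The authors' deposited gene table gives each gene a U-motif score, whose unit is not stated in the sources used here. Its median was 0.023 over the 13 mitotic kinesins, 0.0085 over the 16 transport kinesins and 0.011 over all 14103 genes, and 3 transport kinesins and 0 mitotic kinesins were listed at 0.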
